A study of Homo sapiens with 24 samples.

Results

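The 9 genes described here encode the enzymes that make serine and that carry its carbon on folate: PHGDH, PSAT1, PSPH, SHMT1, SHMT2, MTHFD1, MTHFD2, MTHFD1L and ALDH1L2. They were found in the gene count table by matching Ensembl identifiers, without the version, to these symbols, and they are 9 of 60668 rows. All 9 had enough counts to be tested, among 22158 genes tested. RNA was sequenced from 24 libraries of MCF-10A, an immortalised, non-tumorigenic human mammary epithelial line, grown in 3D culture on growth factor-reduced Matrigel. Of these, 12 libraries came from the parental line and 12 from MCF-10A MYC-ER, in which the transcription factor MYC is joined to a ligand-binding domain of the oestrogen receptor and becomes active when 4-hydroxytamoxifen (4-OHT) binds. Each line had 3 libraries at each of 0, 8, 24 and 48 h of 1 µM 4-OHT. The first exposure began on day 3 and every culture was collected on day 5, so the 0 h groups are untreated cultures of the same age. Parental cells received the same 4-OHT and lack the fusion, so they show what the ligand and the culture do without it. The labels do not give the promoter that drives the fusion, whether its MYC part is human or mouse, or whether the line is 1 clone.

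Serine is made from an intermediate of glycolysis. PHGDH oxidises 3-phosphoglycerate, PSAT1 transfers an amino group to the product, and PSPH removes the phosphate. SHMT1 in the cytosol and SHMT2 in mitochondria then move a carbon of serine onto tetrahydrofolate and leave glycine. In mitochondria MTHFD2 oxidises the folate-bound carbon, MTHFD1L releases it as formate, and ALDH1L2 can oxidise it to carbon dioxide while making NADPH. Formate leaves for the cytosol, where MTHFD1 loads it onto folate again for the synthesis of purines and thymidylate. Genes of this pathway are known as targets of the transcription factors ATF4 and MYC in several cell types, and PHGDH is known for copy gains in some breast cancers.

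Library totals ran from 136860029 to 182438505 counts. Levels are given as CPM, counts divided by a library total that was scaled by TMM and expressed per 1e6, and CPM of different genes are not compared unless divided by transcript length. A gene was called higher or lower where edgeR's quasi-likelihood test gave a Benjamini-Hochberg adjusted p under 0.05 over all genes tested, and adjusted p below always means this. Cultures were seeded in triplicate wells and nothing says that replicates came from separate cultures, so p-values measure the spread between these samples, which may be technical. All 7 basal mammary markers were at 1 CPM or more in every group, and 5 of 7 luminal markers were, with ESR1 below 1 CPM and PGR at 0. The summed luminal level was 231.6 to 249.2 CPM in untreated MYC-ER, 635.5 to 682.5 CPM after 8 h, 468.5 to 480.2 CPM after 24 h and 482.4 to 510.3 CPM after 48 h, against 258.9 to 437.8 CPM in the parental libraries. Of its members, EPCAM had MYC-ER group means of 1.93, 23.8, 75.8 and 38.9 CPM in the same order, and KRT18 was at 503 CPM after 8 h and then at 227 and 214 CPM. The luminal markers did not all rise: GATA3 fell from 18.9 CPM at 0 h to 8.5, 12.3 and 17.1 CPM. KRT8 was at 121 and 122 CPM at 0 and 8 h and then at 155 and 219 CPM. The summed basal level was 14600 to 16340 CPM in MYC-ER at 0 and 8 h, 10190 to 10910 CPM at 24 and 48 h, and 18400 to 28910 CPM in the parental libraries. At 0 h the gap between the lines lay mostly in KRT14 (626 CPM in MYC-ER, 9725 CPM in parental cells) and KRT17 (323 and 2143 CPM). MYC-ER means were also lower for KRT5 (12530 and 13280 CPM), ITGA6 (441 and 1099 CPM) and CDH1 (140 and 160 CPM). They were higher for TP63 (141 and 108 CPM) and EGFR (618 and 449 CPM). KRT5 made up most of the MYC-ER sum, with 12530 CPM at 0 h and 7095 and 6922 CPM at 24 and 48 h. At the same times KRT14 was at 626, 1634 and 951 CPM, KRT17 at 323, 502 and 1145 CPM and EGFR at 618, 634 and 702 CPM. TP63 was at 141, 124 and 139 CPM, and ITGA6 (441, 584 and 429 CPM) and CDH1 (140, 113 and 172 CPM) went both ways. At 8 h in MYC-ER, KRT14 (1524 CPM), KRT17 (1737 CPM), ITGA6 (1460 CPM) and CDH1 (187 CPM) were above their 0 h levels. KRT5 (9972 CPM), TP63 (80.6 CPM) and EGFR (526 CPM) were below theirs, while the sums at 0 and 8 h overlapped. Of 6 fibroblast markers, 2 or 3 were at 1 CPM or more, with COL1A1 and DCN making up most of a summed level of 369.5 to 376.8 CPM in MYC-ER at 0 h. That sum was 79.7 to 130.0 CPM in MYC-ER at later times and 77.3 to 133 CPM in the parental line, while COL1A2, a defining collagen of fibroblasts, was at 0 in all MYC-ER libraries. The luminal and fibroblast sums moved with the MYC-ER 0 h group and the basal sum with the later MYC-ER times and with the line, so these values stand beside every comparison of those groups. Their part in the results was not tested. In bulk RNA, fewer cells of a type and less RNA per cell cannot be told apart. The 3 parental 0 h libraries differed from each other more than any others. Over genes, chi-square per degree of freedom was 173, 256 and 285 for their pairs, against 8.93 to 68.8 for the pairs of the other groups. For the main results against that group, the lowest and highest log2 values obtained without 1 of its libraries are therefore given as well. The row of MYC itself had group means of 387, 795, 321 and 248 CPM in MYC-ER and of 532, 463, 506 and 525 CPM in the parental line at 0, 8, 24 and 48 h. The line difference, MYC-ER minus parental, was -0.46 on the log2 scale before 4-OHT, 0.78 after 8 h, -0.66 after 24 h and -1.08 after 48 h, all 4 called. Whether reads of the fusion fall in that row was not tested.

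Promoter sequences are shown because MYC and ATF4 each have a short DNA motif, and because MTHFD1L, MTHFD1 and PHGDH moved in different ways. RefSeq windows of GRCh38.p14, from 250 bases before to 50 after an annotated start, were at hand for 6 of the 9 genes: PHGDH, PSAT1, SHMT1, MTHFD1, MTHFD2 and MTHFD1L. The motifs searched, on both strands, were CACGTG, the E-box that MYC can bind, and TGATGNAAN, a form of the C/EBP-ATF response element. The motifs do not overlap each other. CACGTG was in 7.26% of all 35116 windows and TGATGNAAN in 3.61%. CACGTG was found for MTHFD1L and MTHFD1, and TGATGNAAN for MTHFD1L, with both MTHFD1L matches in 3 of its 4 windows since those overlap. In MTHFD1L the E-box begins 154 bases and the response element 129 bases before the most downstream of these starts. In MTHFD1 the E-box begins 15 bases before the start. The 250 bases before the PHGDH start held neither, which says only that these letters are not in this window. The sequences below are 5′ to 3′ on the plus strand, with the matched motif in capitals. They are chr6:150866320-150866349 and chr6:150866351-150866380 for MTHFD1L, chr14:64388103-64388352 for MTHFD1 and chr1:119711684-119711933 for PHGDH.
MTHFD1L, stretch with the E-box: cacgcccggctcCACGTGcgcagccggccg
MTHFD1L, stretch with the response element: cggctcTGATGCAATcgcgccgggcgcgac
MTHFD1, before the start: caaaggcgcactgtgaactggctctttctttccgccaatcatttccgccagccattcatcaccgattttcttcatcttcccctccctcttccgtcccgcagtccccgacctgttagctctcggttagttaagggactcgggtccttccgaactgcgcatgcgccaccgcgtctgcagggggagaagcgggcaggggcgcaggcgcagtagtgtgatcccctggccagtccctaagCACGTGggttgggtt
PHGDH, before the start: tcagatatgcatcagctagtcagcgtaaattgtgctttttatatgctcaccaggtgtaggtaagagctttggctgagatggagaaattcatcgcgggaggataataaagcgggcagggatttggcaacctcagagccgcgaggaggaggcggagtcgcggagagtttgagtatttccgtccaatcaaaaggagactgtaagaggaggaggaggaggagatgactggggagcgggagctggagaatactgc

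After 8 h of 4-OHT in MYC-ER cells, the genes for the formate-producing and formate-using enzymes were higher and those for PSAT1 and cytosolic SHMT1 were lower. Of the 9 genes, 6 rose (MTHFD1L, MTHFD2, MTHFD1, ALDH1L2, PSPH and SHMT2), 2 fell (SHMT1 and PSAT1) and PHGDH was not called. Among all genes tested 32.2% were called higher and 35.4% lower in this comparison. The median log2 change was 0.40 over the 9 genes and -0.10 over all genes. At 24 h against 0 h, 7 rose, SHMT1 fell and PSAT1 was not called, where 30.4% of all genes were higher and 31.2% lower. The medians were then 1.08 for the 9 genes and -0.02 for all genes. At 48 h against 0 h, 6 were higher (PHGDH, MTHFD1L, MTHFD2, ALDH1L2, SHMT2 and PSPH), PSAT1 and SHMT1 were lower and MTHFD1 was not called, beside 23.4% and 20.7% of all genes. The medians were 0.34 and 0.03.

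Between 8 and 24 h in MYC-ER, 7 of the 9 genes rose and MTHFD1L fell, where 28.4% of all genes were higher and 27.1% lower. Between 24 and 48 h none rose and 6 fell: PSAT1, PSPH, MTHFD1, MTHFD2, MTHFD1L and ALDH1L2. The share of all genes in that step was 28.2% higher and 25.5% lower, and the medians were -0.54 for the 9 genes and 0.06 for all genes. PHGDH, SHMT1 and SHMT2 were not called between 24 and 48 h.

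**Figure D1:**
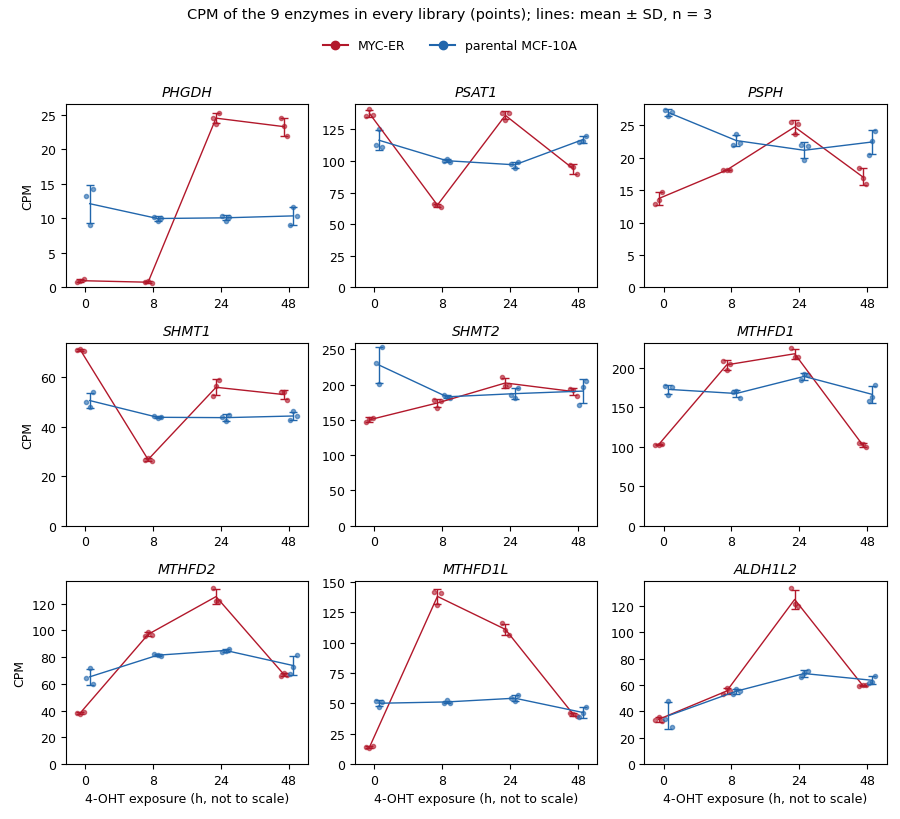
CPM of each of the 9 genes (vertical axes, each from 0) against hours of 4-OHT (horizontal axes, not to scale) in MYC-ER (red) and parental (blue) libraries. Points are libraries and lines join group means with SD (n = 3). PHGDH in MYC-ER is below 1.3 CPM in every 0 and 8 h library and above 21 CPM in every 24 and 48 h library.

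PHGDH, the first and often limiting enzyme of serine synthesis (ENSG00000092621.12, chromosome 1: 119711934 to 119744215 in GRCh38.p14, as are all positions here), had the widest range of the 9 genes. In MYC-ER it stood at 0.766, 0.902 and 1.24 CPM at 0 h and at 0.702, 0.866 and 0.654 CPM at 8 h. It stood at 24.6, 23.7 and 25.2 CPM at 24 h and at 24.6, 23.4 and 22.0 CPM at 48 h. The 6 early libraries did not overlap with the 6 late ones, and within each of these pairs of times the libraries overlapped. At 24 h it was 25.3-fold higher than at 0 h (log2 4.66 ± 0.171 SE, adjusted p = 5.31e-16), and at 48 h 24.1-fold higher (log2 4.59 ± 0.171, adjusted p = 2.55e-15). The early values rest on 97 to 212 counts a library, so they are low but counted.

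The 8 h value of PHGDH was 0.740 ± 0.111 CPM (SD, n = 3) against 0.968 ± 0.243 CPM at 0 h, a log2 difference of -0.39 with an adjusted p of 0.0553 that misses the threshold. That call depended on single libraries: the difference was -0.53 (adjusted p = 0.0139) without MYC-ER 0 h replicate 1 and -0.51 (adjusted p = 0.0279) without MYC-ER 8 h replicate 2. Through the shared spread it was also called without parental 0 h replicate 2 (adjusted p = 0.0199) or 3 (adjusted p = 0.0459). It was also called at -0.48 with library size alone, at -0.53 with the upper quartile, at -0.42 among genes with at least 10 counts in every library and at -0.47 with GC and length trends removed. In parental cells PHGDH stood at 13.2, 8.99 and 14.2 CPM at 0 h, and the 9 libraries exposed to 4-OHT lay between 9.07 and 11.7 CPM. Parental times overlapped and no parental change of PHGDH was called, with log2 values of -0.28, -0.27 and -0.23. Without parental 0 h replicate 2, the low library of its group, these were -0.46, -0.44 and -0.41 and were called lower (adjusted p of 0.00476, 0.00504 and 0.0100).

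PSAT1, the aminotransferase of serine synthesis (ENSG00000135069.14, chromosome 9: 78297125 to 78330093), took another course. Its MYC-ER libraries read 136, 141 and 136 CPM at 0 h, 66.3, 65.1 and 63.9 CPM after 8 h, 138, 132 and 138 CPM after 24 h and 96.7, 95.3 and 89.4 CPM after 48 h. The 8 h libraries lay below all others and the 24 h libraries overlapped with those at 0 h. It fell 2.11-fold by 8 h (log2 -1.08 ± 0.0455, adjusted p = 4.9e-15), rose 2.09-fold from 8 to 24 h, and fell again from 24 to 48 h (log2 -0.54 ± 0.0450, adjusted p = 1.28e-09). The 24 h difference from 0 h was -0.02 (95% interval -0.11 to 0.08) and was not called. After trends with GC content and transcript length were removed it was -0.11 and called lower (adjusted p = 0.0128).

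PSPH, the phosphatase that completes serine synthesis (ENSG00000146733.14, chromosome 7: 56011064 to 56051444), rose at 8 h, as did 5 of the 6 folate enzymes of the set, SHMT1 being the one that fell. MYC-ER libraries gave 12.9, 13.5 and 14.8 CPM at 0 h, 18.2, 18.1 and 18.1 CPM after 8 h, 25.5, 23.6 and 25.2 CPM after 24 h and 18.5, 16.8 and 15.9 CPM after 48 h. The 24 h libraries were highest and the 0 h libraries lowest, and neither overlapped with another MYC-ER time. The log2 change against 0 h was 0.40 ± 0.0689 at 8 h (adjusted p = 2.43e-05), 0.85 ± 0.0690 at 24 h (adjusted p = 4.16e-10) and, after 48 h, 0.32 ± 0.0688 (adjusted p = 0.0007). The 3 enzymes of serine synthesis thus each had their own time course: at 8 h PSAT1 was lower, PSPH higher and PHGDH not called.

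SHMT1, the cytosolic serine hydroxymethyltransferase (ENSG00000176974.20, chromosome 17: 18327873 to 18363550), had the lowest levels of all groups in MYC-ER at 8 h. Values in MYC-ER were 71.2, 71.7 and 70.7 CPM at 0 h, 26.5, 27.5 and 26.4 CPM after 8 h, 52.6, 56.6 and 58.9 CPM after 24 h and 54.2, 54.0 and 51.0 CPM after 48 h. The 0 h libraries were above and the 8 h libraries below all others of the line. It fell 2.66-fold by 8 h (log2 -1.41 ± 0.05, adjusted p = 2.7e-16), and it was still lower than at 0 h after 24 h (log2 -0.35 ± 0.0489, adjusted p = 2.22e-06) and 48 h (log2 -0.42 ± 0.0489, adjusted p = 2.86e-07).

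SHMT2, the mitochondrial enzyme for the same reaction (ENSG00000182199.11, chromosome 12: 57229711 to 57234935), had the narrowest range of the 9 genes, 1.52-fold from the lowest to the highest group. Levels in MYC-ER were 146, 151 and 153 CPM at 0 h, 178, 167 and 177 CPM after 8 h, 210.0, 198 and 199 CPM after 24 h and 194, 193 and 184 CPM after 48 h. The 0 h libraries lay below all later ones. The log2 change was 0.21 ± 0.0677 at 8 h (adjusted p = 0.00879), 0.43 ± 0.0678 at 24 h (adjusted p = 9.8e-06) and, after 48 h, 0.34 ± 0.0677 (adjusted p = 0.000289). With upper-quartile scaling the 8 h value was 0.07 and was not called (adjusted p = 0.36). The step from 24 to 48 h was called lower once GC and length trends were removed (-0.15) and with only these groups in the fit (-0.13, adjusted p = 0.00376).

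The balance of the 2 hydroxymethyltransferases moved with these changes. The ratio of SHMT2 to SHMT1 counts within a library was 2.11 ± 0.0533 (SD, n = 3) in MYC-ER at 0 h, 6.50 ± 0.373 after 8 h, 3.62 ± 0.326 after 24 h and 3.58 ± 0.0182 after 48 h. In the parental line the 4 group means lay between 4.16 and 4.48. All MYC-ER 8 h libraries (6.07 to 6.72) were above and all MYC-ER 0 h libraries (2.06 to 2.16) below every parental library (4.01 to 4.67).

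MTHFD1, the cytosolic enzyme that loads formate onto folate (ENSG00000100714.17, chromosome 14: 64388353 to 64460025), rose early and returned. The MYC-ER libraries had 103, 102 and 103 CPM at 0 h, 209, 197 and 205 CPM after 8 h, 225, 214 and 214 CPM after 24 h and 104, 103 and 99.7 CPM after 48 h. The 8 and 24 h libraries were all above, and the 48 h libraries overlapped with those at 0 h. It rose 1.98-fold by 8 h (log2 0.98 ± 0.0464, adjusted p = 3.29e-14) and was 2.11-fold above 0 h at 24 h (adjusted p = 8.6e-15). At 48 h the log2 difference was -0.01 (95% interval -0.10 to 0.09), and with library size alone it was 0.15 and called higher (adjusted p = 0.00267). The step from 8 to 24 h, 0.10 (adjusted p = 0.0819), was called at 0.30 with library size alone, at 0.20 with the upper quartile, at 0.19 with GC and length trends removed, at 0.13 among genes with at least 10 counts in every library and at 0.11 with only these groups in the fit. Its adjusted p was 0.0475 without parental 0 h replicate 3.

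MTHFD1L, the mitochondrial formate-releasing enzyme (ENSG00000120254.15, chromosome 6: 150865702 to 151101887), had the largest change at 8 h of the 9. Counts scaled to CPM in MYC-ER were 13.9, 13.5 and 14.7 CPM at 0 h, 142, 131 and 141 CPM after 8 h, 116, 110.2 and 107 CPM after 24 h and 41.8, 41.5 and 40.0 CPM after 48 h. None of the 4 times overlapped with another. It rose 9.85-fold by 8 h (log2 3.30 ± 0.0673, adjusted p = 5.13e-20), and was 7.92-fold above 0 h at 24 h and 2.93-fold above it at 48 h (log2 1.55 ± 0.0636, adjusted p = 1.31e-14). The fall from 8 to 24 h was -0.32 ± 0.0612 (adjusted p = 0.000147), and with library size alone it was -0.11 and not called (adjusted p = 0.0689). Of the 9 genes, this was the only one with its highest MYC-ER level at 8 h. Among the 6 genes with promoter windows it was also the one with both motifs, which is a description of sequence and says nothing of binding.

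MTHFD2, the mitochondrial dehydrogenase that feeds MTHFD1L (ENSG00000065911.12, chromosome 2: 74198615 to 74217565), rose with it. Its levels in MYC-ER were 38.0, 37.8 and 39.0 CPM at 0 h, 96.2, 98.7 and 96.3 CPM after 8 h, 132, 122 and 122 CPM after 24 h and 66.3, 68.1 and 66.8 CPM after 48 h. No time overlapped with another. It rose 2.54-fold by 8 h (log2 1.34 ± 0.0615, adjusted p = 2.01e-14), 3.28-fold by 24 h (log2 1.71 ± 0.0620, adjusted p = 4.14e-16), and stayed 1.75-fold above 0 h at 48 h (adjusted p = 3.88e-10).

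MTHFD2L, the paralogue with a similar mitochondrial activity, did not follow: its log2 changes in MYC-ER were 0.14, -0.17 and -0.08 at 8, 24 and 48 h and none was called. With only the groups compared in the fit it was called at 8 h (0.18) and 24 h (-0.12), and with GC and length trends removed at 24 h (-0.23). The MTHFD2 to MTHFD2L count ratio in MYC-ER went from 1.88 ± 0.0489 (SD, n = 3) at 0 h to 4.34 ± 0.319 at 8 h, 6.93 ± 0.318 at 24 h and 3.49 ± 0.121 at 48 h. Its parental group means lay between 2.09 and 2.67. All MYC-ER libraries at 0 h were below 2 (1.83 to 1.93), as was parental 48 h replicate 1 at 1.67. All MYC-ER libraries at 24 h were above 6.5.

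ALDH1L2, the mitochondrial enzyme that oxidises formyl-folate (ENSG00000136010.14, chromosome 12: 105019790 to 105084458), peaked at 24 h. MYC-ER levels were 33.9, 35.9 and 32.5 CPM at 0 h, 53.6, 57.8 and 55.3 CPM after 8 h, 133, 122 and 120.0 CPM after 24 h and 59.3, 60.2 and 60.2 CPM after 48 h. No MYC-ER time overlapped with another. It was 1.63-fold above 0 h at 8 h (log2 0.70 ± 0.112, adjusted p = 9.34e-06), 3.67-fold at 24 h (log2 1.88 ± 0.115, adjusted p = 3.59e-12) and 1.76-fold at 48 h (adjusted p = 3.44e-06). ALDH1L1, its cytosolic counterpart, was below 1 CPM in all group means.

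**Figure D2:**
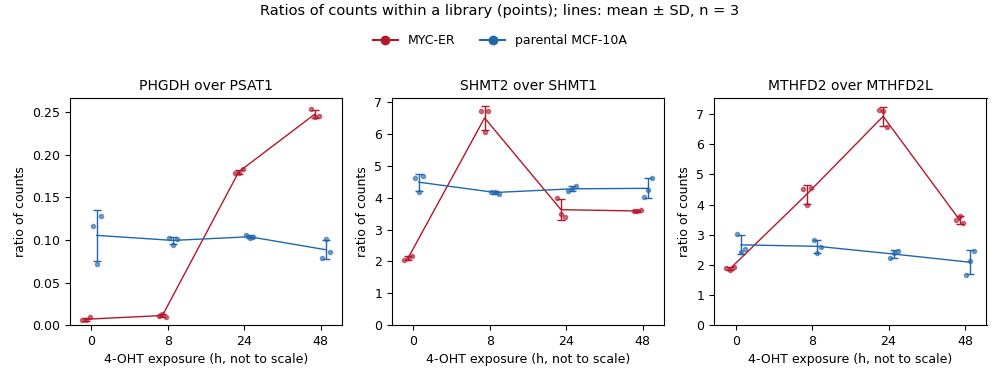
Ratios of counts of gene pairs within each library (vertical axes, from 0) against hours of 4-OHT (not to scale), in MYC-ER (red) and parental (blue) cells. Points are libraries and lines are means with SD (n = 3). The SHMT2 to SHMT1 ratio of MYC-ER is highest at 8 h (6.07 to 6.72) and the MTHFD2 to MTHFD2L ratio at 24 h (6.56 to 7.13), while the PHGDH to PSAT1 ratio is highest at 48 h (0.245 to 0.254).

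In the parental line, 4-OHT went with small changes of the same genes, and ALDH1L2 was the only one of the 9 whose called change exceeded 0.4 on the log2 scale at any time. At 8 h, ALDH1L2 and MTHFD2 were higher and PSAT1, PSPH, SHMT1 and SHMT2 lower, so 2 of 9 rose and 4 fell, where 15% of all genes rose and 16% fell. At 24 h, MTHFD1 was higher as well, giving 3 higher and 4 lower, beside 21.2% and 21.7% of all genes. At 48 h, ALDH1L2 and MTHFD2 were higher and PSPH, SHMT1, SHMT2 and MTHFD1L lower, beside 20.4% and 20.1% of all genes. The parental medians of the 9 genes were -0.21, -0.21 and -0.19, and those of all genes -0.00, -0.03 and -0.00.

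Parental ALDH1L2 was at 34.6, 47.8 and 28.0 CPM at 0 h, at 53.5, 57.2 and 55.5 CPM at 8 h, at 65.8, 69.5 and 71.1 CPM at 24 h and at 61.8, 62.2 and 67.0 CPM at 48 h. The 0 h libraries were spread widely and lay below all later ones. The log2 change was 0.59 ± 0.112 at 8 h (adjusted p = 0.000493), 0.90 ± 0.112 at 24 h (adjusted p = 3.79e-06) and, after 48 h, 0.79 ± 0.112 (adjusted p = 2.28e-05). Without 1 of the 3 parental 0 h libraries, the change lay between 0.44 and 0.82 at 8 h, between 0.76 and 1.14 at 24 h and between 0.66 and 1.02 at 48 h.

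Parental SHMT2 was at 230, 201 and 253 CPM at 0 h, at 185, 182 and 181 CPM at 8 h, at 185, 181 and 196 CPM at 24 h and at 172, 196 and 205 CPM at 48 h. Only the 48 h libraries overlapped with those at 0 h. The log2 changes were -0.32, -0.28 and -0.26 (adjusted p of 0.00132, 0.00177 and 0.00432). Without 1 of the parental 0 h libraries they lay between -0.40 and -0.22 at 8 h, between -0.37 and -0.18 at 24 h and between -0.34 and -0.14 at 48 h. With GC and length trends removed they were -0.09 at 24 h and -0.05 at 48 h, neither called (adjusted p of 0.102 and 0.376). Parental MTHFD2 rose by 0.32 at 8 h, 0.38 at 24 h and 0.17 at 48 h (adjusted p of 0.000493, 4.36e-05 and 0.025). Without 1 of the parental 0 h libraries these lay between 0.27 and 0.39, between 0.34 and 0.45 and between 0.14 and 0.25. With GC and length trends removed the 24 h value was 0.06 and was not called (adjusted p = 0.304).

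These parental calls rested on how the spread was estimated and on the unequal 0 h libraries. With only the 2 groups compared in the fit, no gene of the 9 was called at 8 h, 3 were at 24 h (2 higher, 1 lower) and 1 was at 48 h. Calls over all genes fell in the same fits, in time order from 6870, 9503 and 8978 of 22158 genes to 1452 (of 19596), 4923 (of 19581) and 3274 (of 19680). The log2 values that lost their call there moved little: at 8 h ALDH1L2 was at 0.59, PSAT1 at -0.22 and SHMT2 at -0.32, each the same to 2 decimals in both fits. Without parental 0 h replicate 3, 3 were called at 48 h, SHMT1 (-0.11), SHMT2 (-0.14) and MTHFD2 (0.14) being lost. Shares of all genes called are not given here for fits without 1 library or with GC and length trends removed. MTHFD2 at 48 h was also not called without parental 0 h replicate 1 (0.16) or parental 48 h replicate 3 (0.10). MTHFD1 at 24 h (0.13, adjusted p = 0.0249) was not called with upper-quartile scaling (0.05), without parental 0 h replicate 2 (0.10) or without parental 24 h replicate 2 or 3 (0.12 each). After trends with GC content and transcript length were removed, 4 were called at 24 h. SHMT1 was then not called at 24 h (-0.09) or 48 h (-0.04), nor PSPH at 48 h (-0.14), while MTHFD1 was called lower at 8 h (-0.16) and 48 h (-0.29). MTHFD1L at 24 h was called higher with those trends removed (0.16) and with library size alone (0.15). MTHFD2 at 48 h was then lower (log2 -0.12, adjusted p = 0.0219), and ALDH1L2 was higher by 0.48 at 24 h.

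**Figure D3:**
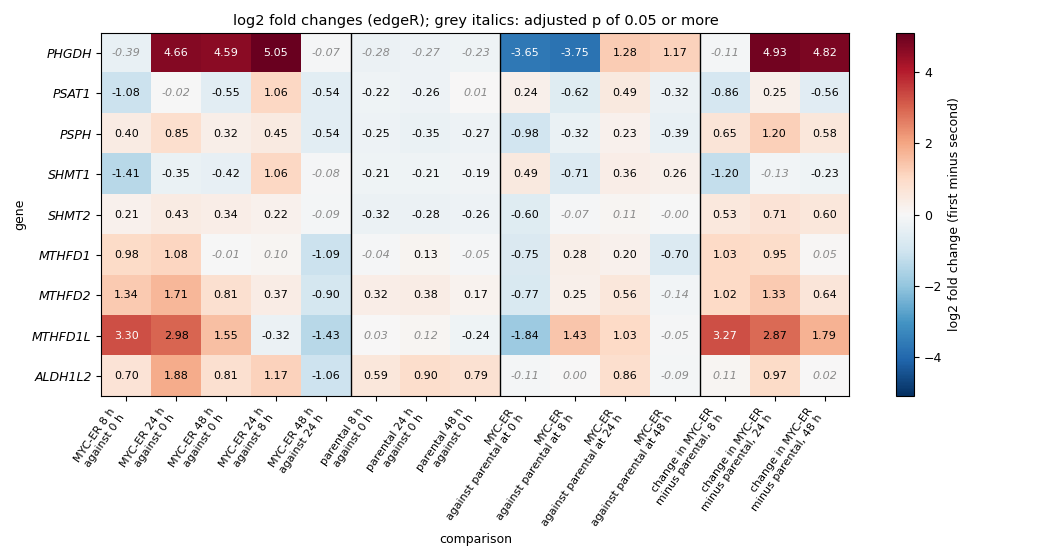
Log2 fold changes (colour and printed number) of the 9 genes (rows) in the 15 comparisons (columns): 5 within MYC-ER, 3 within the parental line, 4 between the lines and 3 differences of the changes. Black or white numbers were called and grey italic ones were not. The largest value is that of PHGDH from 8 to 24 h in MYC-ER (5.05), and the largest of a gene other than PHGDH is that of MTHFD1L from 0 to 8 h in MYC-ER (3.30).

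Before any 4-OHT the lines already differed, and 6 of the 9 genes were lower in MYC-ER: PHGDH, MTHFD1L, PSPH, MTHFD2, MTHFD1 and SHMT2. SHMT1 and PSAT1 were higher and ALDH1L2 was not called. Among all genes 31.6% were higher and 32.7% lower in MYC-ER at 0 h. PHGDH was 12.5-fold lower (log2 -3.65 ± 0.166, adjusted p = 2.46e-14), MTHFD1L 3.58-fold lower (log2 -1.84 ± 0.0640, adjusted p = 2.39e-16) and PSPH 1.97-fold lower (log2 -0.98 ± 0.0691, adjusted p = 4.6e-11). SHMT1 was 1.41-fold and PSAT1 1.18-fold higher. None of these groups overlapped with its parental counterpart. Leaving out parental 0 h replicate 1 or 2 gave the same 6 lower and 2 higher counts. Without replicate 3, ALDH1L2 was also called lower (log2 -0.25, adjusted p = 0.0163), and at -0.50 (adjusted p = 3.8e-08) once GC and length trends were removed, against -0.11 as first given. Without 1 of the 3 parental libraries the difference lay between -3.82 and -3.49 for PHGDH, between -1.88 and -1.81 for MTHFD1L and between -0.99 and -0.95 for PSPH.

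After 8 h, 3 of the 9 genes were higher in MYC-ER than in parental cells (MTHFD1L, MTHFD1 and MTHFD2) and 4 were lower (PHGDH, SHMT1, PSAT1 and PSPH), where 23.1% of all genes were higher and 25.5% lower. MTHFD1L had passed from lower to higher: its 8 h difference was 1.43 ± 0.0624 (adjusted p = 4.04e-14). PHGDH was still 13.5-fold lower. MTHFD1 was at 0.28 there (adjusted p = 2.42e-05), and with GC and length trends removed at 0.12 and not called (adjusted p = 0.0893). SHMT2 was called lower at 8 h with library size alone (-0.15) and with those trends removed (-0.11). At 24 h, 8 of 9 were higher and none lower, with SHMT2 not called (log2 0.11, 95% interval -0.03 to 0.25), beside 23.5% and 25.8% of all genes. PHGDH was 2.43-fold, MTHFD1L 2.04-fold and ALDH1L2 1.82-fold higher there. At 48 h, PHGDH and SHMT1 were higher, PSAT1, PSPH and MTHFD1 were lower, and SHMT2, MTHFD2, MTHFD1L and ALDH1L2 were not called. Among all genes 27.3% were then higher and 29.4% lower.

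The difference at 24 h is small for PSPH (log2 0.23, adjusted p = 0.00883), and without parental 24 h replicate 2 it was 0.18 and not called (adjusted p = 0.0594). SHMT2 at 24 h was called higher with library size alone (0.24), with the upper quartile (0.21), with GC and length trends removed (0.18) and with only these groups in the fit (0.12). MTHFD2 at 48 h (log2 -0.14, adjusted p = 0.0598) was called lower when parental 48 h replicate 1 was left out (-0.20, adjusted p = 0.00898), and likewise without parental 0 h replicate 2 or 3 (-0.14 each).

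**Figure D4:**
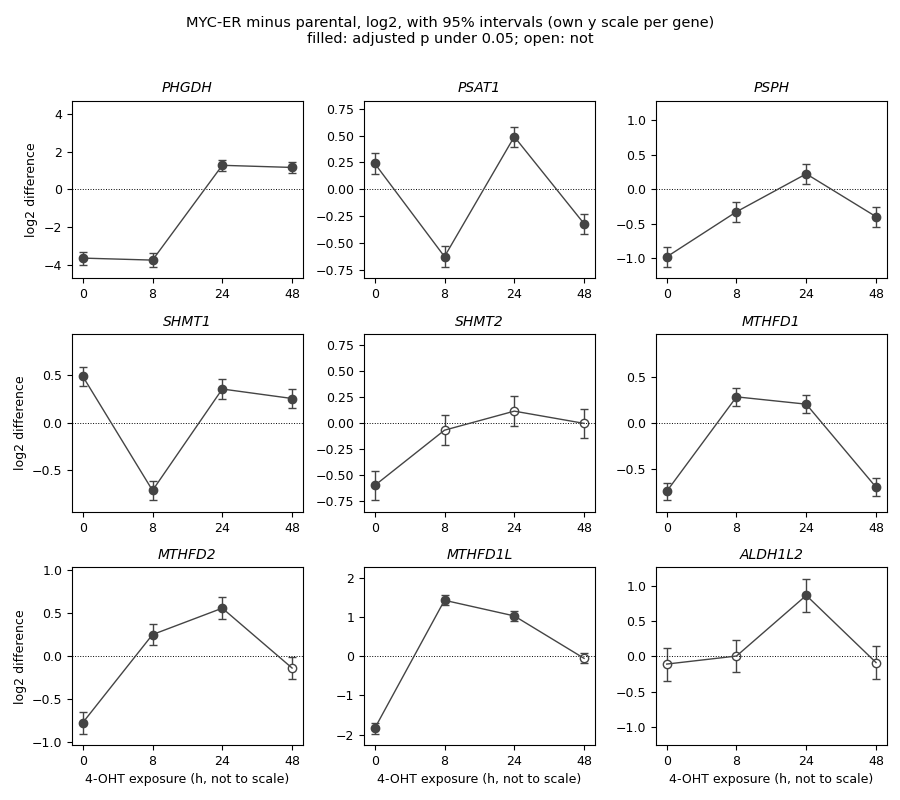
Log2 difference of MYC-ER minus parental cells (vertical axes, own scale for each gene) at each time of 4-OHT (not to scale). The 95% intervals are derived from edgeR's test. Filled points were called and open points were not. PHGDH crosses from -3.75 at 8 h to 1.28 at 24 h, and MTHFD1L from -1.84 at 0 h to 1.43 at 8 h.

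Whether the lines changed differently was tested directly, by subtracting the parental change from the MYC-ER change. At 8 h the MYC-ER change was the higher in 5 genes and the lower in 2 (SHMT1 and PSAT1), where 27.3% of all genes were higher and 27.8% lower. PHGDH and ALDH1L2 were not called at 8 h, with differences of -0.11 (95% interval -0.58 to 0.36) and 0.11 (95% interval -0.21 to 0.44). The ALDH1L2 value was 0.31 and called once GC and length trends were removed. At 24 h it was higher in 8 of 9, with SHMT1 not called (-0.13), beside 27.7% and 26.8% of all genes. Without parental 0 h replicate 3, SHMT1 was called lower (-0.19, adjusted p = 0.0127), as it was with GC and length trends removed (-0.30). At 48 h it was higher in 5 and lower in PSAT1 and SHMT1, beside 23.6% and 21.4%. SHMT1 at 48 h (-0.23) was not called with library size alone (-0.13, adjusted p = 0.113) or with the upper quartile (-0.15, adjusted p = 0.116). MTHFD1 at 48 h was called higher with library size alone (0.15) and with GC and length trends removed (0.38). For PHGDH the difference of changes was 4.93 ± 0.219 at 24 h (adjusted p = 3.66e-14), and without 1 of the parental 0 h libraries it lay between 4.79 and 5.11. For MTHFD1L it was 3.27 ± 0.0894 at 8 h (adjusted p = 3.01e-17), and between 3.24 and 3.31 without 1 such library. ALDH1L2 differed at 24 h (0.97 ± 0.158, adjusted p = 1.85e-05), with 0.74 to 1.13 without 1 such library. At 48 h its difference was 0.02, and 0.54 and called once trends with GC content and transcript length were removed.

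Divided by the length of the longest GENCODE 29 transcript, levels can be set roughly side by side between genes. Which transcripts were expressed was not tested, and a shorter one would give a higher value. In parental cells at 0 h, SHMT2 stood at 66.6 CPM per kb, PSAT1 at 53.2 and MTHFD1 at 25.3, while ALDH1L2 stood at 4.87 and PHGDH at 3.82. In MYC-ER at 0 h PSAT1 was first at 62.9 CPM per kb and PHGDH last at 0.305. At 8 h in MYC-ER, MTHFD1L stood at 38.3 CPM per kb, above PSAT1 at 29.7. At 24 h PSAT1 was first again at 62.2 CPM per kb, SHMT2 followed at 59.2, and PHGDH was last at 7.71. By this measure PHGDH had the lowest level of the 9 in each of these groups, also where it had risen. The next lowest in MYC-ER at 24 h was PSPH at 11.4 CPM per kb, so that rank depends on the lengths used.

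Across the 8 groups the order of levels shows which neighbours could not be told apart. For PHGDH, MYC-ER at 24 and 48 h came first and overlapped, the 4 parental groups followed and overlapped as neighbours, and MYC-ER at 0 and 8 h came last and overlapped. For MTHFD1L, MYC-ER at 8 h and then at 24 h stood above and apart from all others, and MYC-ER at 0 h below and apart. Parental 48 h (42.6 ± 4.39 CPM, SD, n = 3) and MYC-ER 48 h (41.1 ± 0.985 CPM) overlapped. The ALDH1L2 order was led by MYC-ER at 24 h (125 ± 7.29 CPM), apart from parental 24 h (68.8 ± 2.68 CPM), and ended with the overlapping 0 h groups of both lines. The highest group was 33.1 times the lowest for PHGDH, 9.85 times for MTHFD1L and 3.67 times for ALDH1L2. Within the parental line alone these ratios were 1.22, 1.28 and 1.87.

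The rest of the pathway was read from 5 lists of 37 other genes, of which 35 were tested (BHMT and SDS were not). In MYC-ER 17 of the 35 rose and 11 fell at 8 h, 18 rose and 7 fell at 24 h, and 14 were higher and 7 lower at 48 h. Over all genes 32.2% rose and 35.4% fell at 8 h, 30.4% and 31.2% at 24 h and 23.4% and 20.7% at 48 h, and the counts of each list below stand beside these shares. Their median log2 changes were 0.14, 0.26 and 0.04. In parental cells 6 rose and 5 fell at 8 h, 8 rose and 7 fell at 24 h, and 9 rose and 9 fell at 48 h, beside 15% and 16%, 21.2% and 21.7%, and 20.4% and 20.1% of all genes. With only the groups compared in the fit, none of the parental changes at 8 h was called, 4 at 24 h and 6 at 48 h, and without parental 0 h replicate 1 there were 7 at 8 h.

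In the list of folate uptake, retention and reduction, 3 of 7 rose and 4 fell at 8 h in MYC-ER, and 3 rose and 2 fell at 24 h. SLC19A1, the reduced folate carrier, had group means of 13.0, 49.3, 37.4 and 13.4 CPM at 0, 8, 24 and 48 h, with log2 changes of 1.92, 1.52 and 0.04, the last not called (0.20 and called with library size alone). SLC46A1, the proton-coupled folate transporter, fell (-1.84, -1.99 and -0.60), from 262 CPM at 0 h to 66.2 CPM at 24 h. SLC25A32, the mitochondrial folate carrier, rose at 8 h (1.28), was not called at 24 h (0.07) and was lower at 48 h (-0.42).

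In the list of other folate-dependent enzymes, 3 of 9 rose and 3 fell at 8 h in MYC-ER, and the same counts held at 24 h. GART and ATIC, enzymes of purine synthesis that use formyl-folate, rose at 8 h (1.30 and 1.63) and at 24 h (0.81 and 1.24). TYMS, thymidylate synthase, was not called at 8 h (-0.08; called at -0.22 with upper-quartile scaling and at -0.19 without MYC-ER 0 h replicate 2) and rose at 24 h (3.50) and 48 h (1.67), from 5.29 CPM at 0 h to 60.0 CPM at 24 h. TYMS is also known as a gene of S phase.

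In the glycine cleavage list, 2 of 4 rose at each of the 3 times in MYC-ER and 1 fell at 8 h. GLDC, the decarboxylase of the system, had 22, 24 and 0 counts in the 3 MYC-ER libraries at 0 h and 380 to 513 counts at 8 h. Its group means were 0.0879, 3.10, 16.7 and 3.28 CPM, with fitted log2 changes of 5.12, 7.55 and 5.20. In parental cells it lay between 2.92 and 4.09 CPM and was not called at any time by edgeR over all libraries, though its 48 h change (0.45) was called by DESeq2 and without MYC-ER 0 h replicate 3. GCSH, the lipoyl carrier, rose by 1.06, 1.18 and 0.51.

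In the methionine cycle list, 3 of 7 tested genes rose and 2 fell at 8 h in MYC-ER, and 4 rose and 1 fell at 24 h. AHCY, which clears S-adenosylhomocysteine, rose by 0.84, 0.97 and 0.66, and MTRR, which reactivates methionine synthase, by 1.24 and 0.34 at 8 and 24 h. Among other serine enzymes and carriers, 6 of 8 rose and 1 fell at 8 h and again at 24 h. SFXN1, a carrier of serine into mitochondria, rose by 0.87 and 0.89 at 8 and 24 h, and SFXN3, its relative, by 0.87 and 0.77. SRR, serine racemase, fell by 0.75 and 0.39. SLC1A4, a transporter of serine and other neutral amino acids, was lower in MYC-ER at 0 h (log2 -3.05 against parental cells) and still at 48 h (-2.04).

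ATF4 mRNA, read as that of a known regulator, fell in both lines: by 0.29, 0.81 and 0.34 in MYC-ER and by 0.27, 0.40 and 0.35 in parental cells at 8, 24 and 48 h. Its difference of changes was called at 24 h (-0.41). Without 1 of the parental 0 h libraries the parental values lay between -0.38 and -0.20, between -0.51 and -0.32 and between -0.46 and -0.26, all called, and the difference of changes at 24 h between -0.47 and -0.29. With GC and length trends removed the parental values were -0.07, -0.10 and -0.04, none called, and the differences of changes at 8 and 48 h were called at -0.26 and -0.38. With only the groups compared in the fit, the parental changes at 8 and 48 h were not called (-0.27 and -0.34).

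**Figure D5:**
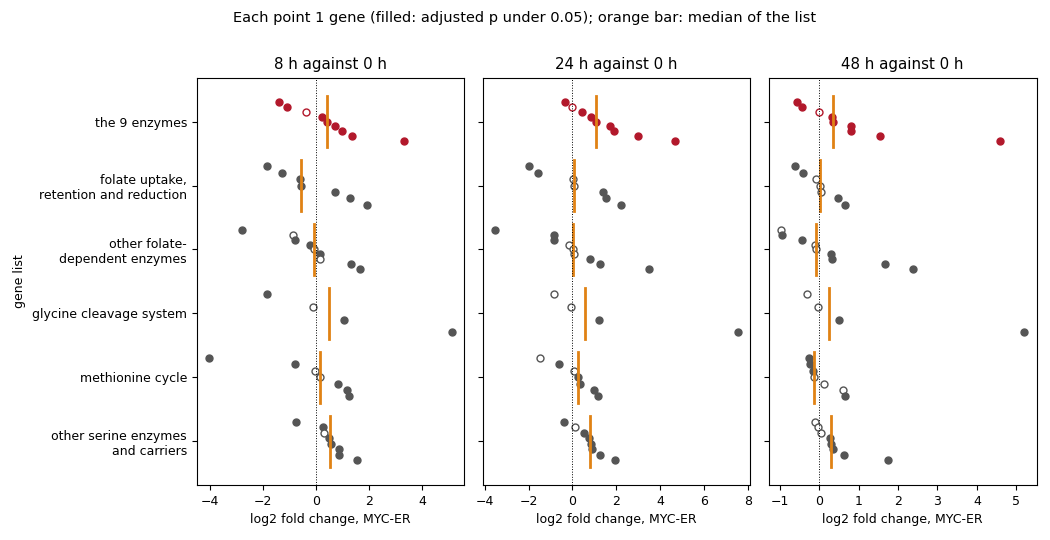
Log2 fold change in MYC-ER at 8, 24 and 48 h against 0 h (horizontal axes, scale set per panel) of the 9 genes (red) and of 5 lists of other pathway genes (grey). Each point is 1 gene, filled where called, and the orange bar is the list's median. The 9 genes have medians of 0.40, 1.08 and 0.34, and the outlying point of the glycine cleavage list is GLDC (5.12, 7.55 and 5.20).

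The 9 genes did not share a single pattern. Over the 8 group means, Pearson's r on log2 CPM was 0.93 for MTHFD2 and MTHFD1L, 0.89 for PSAT1 and SHMT1 and 0.88 for PSPH and SHMT2, and -0.72 for SHMT1 and MTHFD1L. These describe 8 points that share lines and times, and they carry no test. Of the 9688 genes whose mean reached 10 CPM, the most like PHGDH was PCCB (r = 0.975), the most like MTHFD1L was TCP1 (0.991) and the most like MTHFD1 was PGK1 (0.994). The most like PSAT1 was CPT2 (0.939), for PSPH it was LAPTM4B (0.982), for SHMT1 PIGV (0.986), for SHMT2 MIF (0.974), for MTHFD2 TPD52 (0.985) and for ALDH1L2 TTC8 (0.971).

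Other genes could share reads with some of the 9, since the counting's treatment of such reads is not given. Rows named as pseudogenes of PSAT1, PSPH, SHMT1, MTHFD1 and MTHFD2 had at most 7 counts in any library. Exons of genes on the other strand overlap SHMT1 (SMCR8, 196 bases, 26.9 to 54.1 CPM), MTHFD1 (ZBTB25, 178 bases, 10.4 to 35.1 CPM) and ALDH1L2 (C12orf45, 145 bases, 14.8 to 28.3 CPM). The kit marks strand, but whether the counting used it is not given in the sources used here.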

How the data were processed

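RNA was measured in 24 poly(A)-selected, stranded libraries (3 in each of 8 line by time groups, taken from the labels) sequenced as paired-end reads with 3 libraries pooled per lane. Lane membership is not given. The authors deposited whole-number counts per gene, not normalised, in 1 table. The submitters' processing notes name Trimmomatic 0.39, STAR, StringTie 2.1.3b and GRCh38. Roles, annotation release, strand setting and treatment of multi-mapping reads are not given in the sources used here. The layout resembles that of prepDE, a StringTie helper that turns coverage into counts, and if so the deposited counts are estimates.

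Of 60668 rows, 60340 matched a symbol. Genes were kept by edgeR's filterByExpr (22158 genes) and scaled by TMM. One mean per group was fitted over all 24 libraries (edgeR 4.0.16, R 4.3.3, glmQLFit and glmQLFTest, two-sided), with Benjamini-Hochberg adjustment over all genes tested and a threshold of 0.05. edgeR's common dispersion gave a biological coefficient of variation of 0.151. Log2 CPM used a prior count of 2. For edgeR, the SE was derived as the absolute log2 change divided by the square root of the test's F statistic. Intervals are 95%, from that SE and the fit's degrees of freedom. The script was tested on simulated data with known changes. Alternatives were DESeq2 1.42.0 (its Wald test, and its size factors in edgeR), library size alone, upper-quartile scaling, no filter, at least 10 counts in every library, GC and length trends removed (lowess, span 0.3; values for 98% of tested genes, GENCODE 29), the replicate number as a block, each library left out, and fits of only the groups compared.

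The 9 genes, the lists, the rule for names and the alternatives were chosen with earlier results of these data known, and the lists come from general knowledge of the pathway. All 9 genes are named. From the 5 lists (folate uptake, retention and reduction; other folate-dependent enzymes; glycine cleavage system; methionine cycle; other serine enzymes and carriers) every gene was counted, and those named have at least 1 CPM in the highest group, at most 4 a list and comparison, by size of change. An item of the lists is counted and not reported by name here. MTHFD2L and ALDH1L1 are named as homologues, ATF4 and MYC as regulators. Marker lists covered basal and luminal epithelium, fibroblasts, endothelium and blood cells. Of 3 endothelial markers at most 1 reached 1 CPM, and of 3 blood markers only CD68 did (their sum was 15.4 to 23.6 CPM in MYC-ER at 0 and 8 h, 4.20 to 8.63 CPM at 24 and 48 h and 6.46 to 20.8 CPM in parental cells). Likeness is Pearson's r over 8 group means.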

Additional observations from a re-analysis of the deposited data

Results flagged for a closer look

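For 8 of the 9 genes at 24 h, and for 7 at 8 h and 7 at 48 h, the change in MYC-ER differed from the change in parental cells by edgeR's direct test of that difference (log2, MYC-ER change minus parental change, adjusted p under 0.05). Over all genes 27.3% were higher and 27.8% lower in that test at 8 h, 27.7% and 26.8% at 24 h and 23.6% and 21.4% at 48 h. For PHGDH it was 4.93 at 24 h and 4.82 at 48 h. At 8, 24 and 48 h it was 3.27, 2.87 and 1.79 for MTHFD1L, and in the same order for MTHFD2 1.02, 1.33 and 0.64, for PSPH 0.65, 1.20 and 0.58, and for SHMT2 0.53, 0.71 and 0.60. For MTHFD1 it was 1.03 at 8 h and 0.95 at 24 h, and for ALDH1L2 0.97 at 24 h. Negative values were those of SHMT1 at 8 h (-1.20) and 48 h (-0.23, not called with library size alone or the upper quartile) and of PSAT1 at 8 h (-0.86) and 48 h (-0.56), while PSAT1 at 24 h was at 0.25.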

How the results depend on the processing

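Of 135 values (9 genes in 15 comparisons), all kept their direction and call with DESeq2's test, DESeq2's size factors, no filter and the replicate block. With the block, 8 of the 9 genes were called in MYC-ER at 8 h, as without it. Deviations from the group means correlated little between libraries of the same replicate number (84 pairs, r from -0.0776 to 0.0943). Of 24 libraries, 12 were closest to one of their own number, out of 3 numbers. That does not settle whether the numbers mark pairs. The parental counts were the least stable. The 6 called at 8 h became 0 with only the groups compared, the 7 at 24 h became 3 with only the groups compared and 4 with GC and length trends removed, and the 6 at 48 h became 1 with only the groups compared and 3 to 7 with 1 library left out. Over all genes those fits called 1452, 4923 and 3274 genes in place of 6870, 9503 and 8978. The smaller fits have fewer residual degrees of freedom, and in the parental ones the SE was also larger. At 8 h it was 0.0758 against 0.045 for PSAT1, 0.0957 against 0.0677 for SHMT2 and 0.085 against 0.0604 for MTHFD2. In MYC-ER, fits of only the groups compared called 8 of the 9 genes at 8, 24 and 48 h against 0 h. The main fit of these comparisons called 32.2% of all genes higher and 35.4% lower at 8 h. It called 30.4% and 31.2% at 24 h and 23.4% and 20.7% at 48 h. The shares of all genes in the smaller MYC-ER fits are not given here. The cause of the parental shifts and of the other shifts was not tested. Signs turned, in a value called before or after, with library size alone for MTHFD1 in MYC-ER at 48 h (0.15) and SHMT2 between the lines at 48 h (0.14). With GC and length trends removed they turned for MTHFD1 in parental cells at 24 h (-0.13), MTHFD2 there at 48 h (-0.12) and ALDH1L2 between the lines at 8 h (-0.19), and the ATF4 difference of changes at 48 h was then -0.38.

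The shares here are of the genes called in a comparison, not of all genes tested. Library size alone raised the share called higher from 53.0% to 73.8% in MYC-ER at 48 h and from 51.2% to 67.8% from 8 to 24 h. Between the lines that share rose from 48.2% to 59.8% (59.7% with the upper quartile) at 48 h and from 47.6% to 60.7% (58.4%) at 24 h. In the difference of changes at 48 h it rose from 52.5% to 63.5%. Library size alone lowered the share from 47.5% to 38.7% between the lines at 8 h. The share also fell from 49.5% to 43.4% in the difference of changes at 8 h and from 47.7% to 43.2% in MYC-ER at 8 h.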
